A study of Mus musculus with 6 samples.

Results

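The imprinted genes Dlk1, Meg3, Rian, H19, Igf2, Peg3, Plagl1, Grb10 and Nnat were followed in islets labelled as a beta cell knockout of Neurod1. Neurod1 is a transcription factor of the basic helix-loop-helix class that acts in endocrine and nerve cells. The imprinted genes are 9 of the 23284 genes in the count files and were matched by symbol. They were chosen as maternally or paternally expressed imprinted genes known in islets. Bulk RNA-seq of islets isolated by collagenase digestion and hand picking was compared between 2 groups of mice aged 12 weeks. The knockout group was Neurod1-floxed/floxed with Rip-Cre+, a Cre recombinase under the rat insulin promoter, and is labelled as specific to beta cells (libraries 4, 5 and 6). The control group was Neurod1-floxed/floxed without Cre (libraries 7, 10 and 16), and the strain of both groups is written C56BL/J. Both groups therefore carried the floxed alleles, and effects of Cre or its transgene and of the deletion cannot be told apart. Separate animals are not named in the labels, so the p-values reflect how far these samples spread, which may be technical.

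An imprinted gene is expressed mainly from one parental allele. Most imprinted genes sit in clusters under a control region whose methylation was laid down in the egg or the sperm, and the methylated allele of that region can be the silent or the active one for a given gene. Genes of paternal origin often promote growth and those of maternal origin often restrain it, and several act on insulin and insulin-like growth factor signalling or on the number of beta cells. Counts per gene do not separate the parental alleles, so the values below are totals over both. In bulk islets, fewer cells of a type and less RNA per cell cannot be told apart.

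Levels are given as CPM, counts per 1000000 counts of the library after TMM scaling, and are not divided by transcript length, so they compare libraries and not genes. Log2 fold changes are knockout over control. Adjusted p-values are from edgeR's quasi-likelihood test with Benjamini-Hochberg adjustment over 14770 tested genes, and a gene was called at an adjusted p under 0.05.

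Of the 9 genes, 8 had enough counts to be tested, 5 fell in the knockout and 0 rose. Over all tested genes 12.6% were called lower and 11.8% were called higher. The 9 genes and all lists below were chosen with earlier results of these data known. Comparisons of their counts and medians with all tested genes are therefore descriptions and cannot test for an excess. Those that fell were Plagl1, Nnat, Grb10, Meg3 and Rian. The count of 0 higher held by DESeq2 and limma-voom as well, and 0 of the 8 had an unadjusted p under 0.05 in that direction. Dlk1, Igf2 and Peg3 were not called, and H19 was too low to test. The median log2 fold change was -0.64 over the 8 genes and -0.01 over all tested genes. In each of the 5 called genes all knockout libraries lay below all control libraries. Over all tested genes 22.0% were separated in this way, 20.0% the other way round, and 42.0% in either direction.

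The starts of the genes that fell are printed so that their sequence can be read beside the expression values. RefSeq promoters (250 bases before to 50 after the start, GRCm38.p6, 5′ to 3′ on the strand of the gene) were matched for 8 of the 9 genes, and for Meg3 and Grb10, which have 2 starts in the table, the 5′-most is shown. Capitals mark the E-box CANNTG, the motif class bound by basic helix-loop-helix factors, which reads the same on both strands.
Meg3, chr12:109540746-109541045, plus strand: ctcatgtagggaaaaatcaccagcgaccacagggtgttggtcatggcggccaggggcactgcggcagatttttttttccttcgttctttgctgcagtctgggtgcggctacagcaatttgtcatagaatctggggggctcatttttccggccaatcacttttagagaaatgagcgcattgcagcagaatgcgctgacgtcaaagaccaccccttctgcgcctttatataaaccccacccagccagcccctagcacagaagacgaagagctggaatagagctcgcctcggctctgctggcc
Rian, chr12:109603695-109603994, plus strand: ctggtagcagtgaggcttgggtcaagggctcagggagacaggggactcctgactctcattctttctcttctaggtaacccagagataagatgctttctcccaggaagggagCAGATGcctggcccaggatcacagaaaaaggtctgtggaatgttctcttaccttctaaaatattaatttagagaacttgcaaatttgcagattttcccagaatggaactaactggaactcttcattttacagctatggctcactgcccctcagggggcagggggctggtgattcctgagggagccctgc
Plagl1, chr10:13090582-13090881, plus strand: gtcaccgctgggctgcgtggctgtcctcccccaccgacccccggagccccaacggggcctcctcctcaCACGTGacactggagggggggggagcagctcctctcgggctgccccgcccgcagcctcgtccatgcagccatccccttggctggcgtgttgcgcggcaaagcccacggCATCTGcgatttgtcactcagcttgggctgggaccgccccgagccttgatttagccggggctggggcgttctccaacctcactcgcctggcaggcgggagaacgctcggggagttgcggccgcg
Grb10, chr11:12037371-12037670, minus strand: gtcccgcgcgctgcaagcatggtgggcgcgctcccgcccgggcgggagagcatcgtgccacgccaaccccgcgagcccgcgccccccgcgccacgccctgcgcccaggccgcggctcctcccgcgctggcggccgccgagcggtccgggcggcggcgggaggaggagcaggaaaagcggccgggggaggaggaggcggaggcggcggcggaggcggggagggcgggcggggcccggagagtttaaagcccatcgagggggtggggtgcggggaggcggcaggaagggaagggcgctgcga
Nnat, chr2:157559828-157560127, plus strand: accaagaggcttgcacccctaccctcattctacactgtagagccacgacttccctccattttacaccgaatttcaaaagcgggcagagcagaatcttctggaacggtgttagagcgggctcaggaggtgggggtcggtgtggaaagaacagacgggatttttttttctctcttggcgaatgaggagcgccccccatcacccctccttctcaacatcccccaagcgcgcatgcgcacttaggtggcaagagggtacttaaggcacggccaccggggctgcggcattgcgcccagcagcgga
The Plagl1 window held 2 E-boxes, and the Rian window held 1. That of Rian was CAGATG, a form often bound by Neurod1 and its relatives, and the second of Plagl1 was the same motif read on the other strand. The first of Plagl1 was CACGTG, the form bound by factors such as Myc and Usf. The windows shown for Meg3, Grb10 and Nnat held 0, and the windows at the second starts of Meg3 and Grb10, which are not shown, held 1 each (CATGTG for Meg3, CACTTG for Grb10). Of 19041 promoters of the same length, 68.9% had at least 1 CANNTG and 14.4% had at least 1 CAGATG on either strand. Whether transcription starts at these windows in islets, and whether Neurod1 binds there, was not tested. The windows differed in base composition. Grb10 had 80.0% G and C with 45 CpG dinucleotides at the start shown and 52.3% with 9 at its second start. Plagl1 had 70.7% with 26, whereas Rian had 49.3% with 0. Meg3 had 53.7% with 13 at the start shown and 50.3% with 1 at its second. Nnat had 57.3% with 17, and the medians over all promoters were 57.0% and 14.

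Depth and the labels were checked before the genes were read. Library totals ran from 12206393 to 20412435 counts. Neurod1 had 28.4, 29.8 and 31.3 CPM in knockout libraries 4, 5 and 6 and 198, 177 and 141 CPM in control libraries 7, 10 and 16 (log2 fold change -2.53, SE 0.13, adjusted p = 1.74e-05). Every listed marker of beta, alpha, delta and PP cells was present, but the summed levels of beta and alpha markers did not overlap between the groups. The lower beta sum reflected mainly Ins1, with a mean of 4307 CPM in knockout islets against 48668 CPM in control islets. The median log2 fold change of the beta markers was 0.27. Nkx6-1, Pdx1 and Slc2a2 rose, while Ins1 and G6pc2 fell. Most of the alpha sum was Gcg, which was not called (log2 fold change -0.45, adjusted p = 0.0663), and the alpha median was -0.29. Of 9 beta markers 3 rose and 2 fell (sum 131613 to 148159.7 CPM in the knockout, 173452 to 191816 CPM in the control), and Ins2 averaged 113090.2 ± 7417 CPM in knockout islets and 111006 ± 5361 CPM in control islets (SD, n = 3 each). Of 7 alpha markers 2 fell and 0 rose (26730.3 to 35446 CPM in the knockout, 37801 to 50923 CPM in the control). Of 4 delta markers 1 rose and 1 fell (3581 to 5001 CPM in the knockout, 4091 to 6494 CPM in the control), and of 2 PP markers 1 fell (2441 to 2537 CPM in the knockout, 2363 to 3569 CPM in the control). For other cells, the summed levels separated the groups for endothelial, for stellate and fibroblast, and for Schwann cell and neuron markers. The sums overlapped for acinar, duct and leukocyte markers. Over all tested genes 12.6% were called lower and 11.8% higher, beside which the counts of called markers can be read. Of 10 endothelial markers 9 fell, and their summed level was 609 to 709 CPM in knockout islets and 951 to 957 CPM in control islets. Of 11 stellate and fibroblast markers 4 fell (sum 734 to 972 CPM in the knockout, 1058 to 1401 CPM in the control). Of 14 acinar markers 2 fell (4464 to 12869.7 CPM in the knockout, 12259 to 43632 CPM in the control). The median log2 fold change of the acinar markers was nevertheless -1.80. Their sums overlapped only through knockout library 5, at 12869.7 CPM, and control library 16, at 12259 CPM. Of 6 Schwann cell and neuron markers 2 fell and 1 rose (39.6 to 49.6 CPM in the knockout, 77.9 to 92.8 CPM in the control). Of 7 tested leukocyte markers 1 fell (91.9 to 286 CPM in the knockout, 65.3 to 145 CPM in the control), and of 6 duct markers 3 fell (290.1 to 317 CPM in the knockout, 312 to 367 CPM in the control). No listed marker in the files was at 0 in all libraries. With the mean endothelial marker level as a covariate 0 of the 8 imprinted genes were called, at log2 fold changes of -2.11 for Plagl1, -1.32 for Meg3, -0.88 for Nnat, -0.81 for Grb10 and -0.48 for Rian. Over all 14770 genes that fit called only 12 higher and 2 lower, and Neurod1 itself was at adjusted p = 0.0714, so the endothelial level and the genotype cannot be told apart in these libraries. With the stellate level as a covariate 3 of the 5 were called (Meg3, Plagl1 and Grb10), while Rian was at -0.55 and Nnat at -0.81 on the log2 scale. With the acinar level also 3 were called (Rian, Plagl1 and Grb10), while Meg3 was at -0.61 and Nnat at -1.29.

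**Figure D1:**
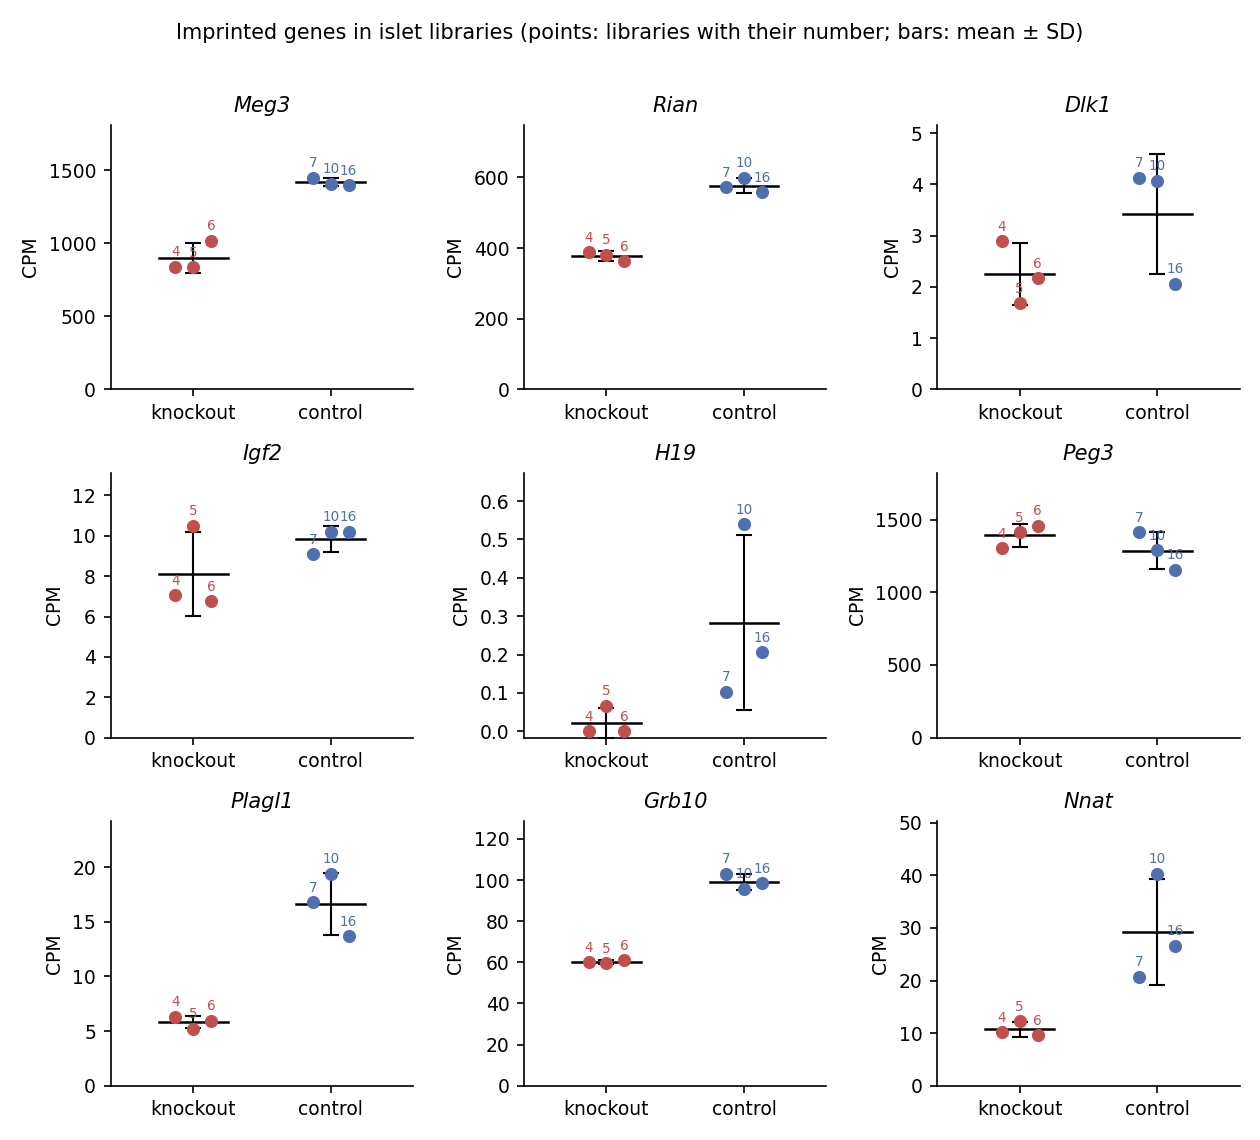
CPM of the 9 imprinted genes in each islet library, with the knockout at the left and the control at the right of each panel; points are libraries with their number, and bars are the mean ± SD of 3 libraries. Plagl1, Grb10, Nnat, Meg3 and Rian show no overlap between the groups, while Dlk1, Igf2 and Peg3 overlap, and H19 is drawn below 1 CPM in all libraries.

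The distal chromosome 12 domain carries Dlk1, which is expressed from the paternal allele, and the noncoding RNAs Meg3, Rian and Mirg, which are expressed from the maternal allele. The 3 maternally expressed RNAs all fell, by 0.61 to 0.66 on the log2 scale. They share this domain, and whether their falls are separate events was not tested. Meg3, a long noncoding RNA whose promoter lies next to a control region methylated on the paternal allele, had 839.6, 836 and 1016 CPM in knockout libraries 4, 5 and 6 and 1448, 1407 and 1396 CPM in control libraries 7, 10 and 16. The highest knockout library, 6, stayed below the lowest control library. Meg3 averaged 897 ± 103 CPM in knockout islets and 1417 ± 27.5 CPM in control islets (SD, n = 3 each), a log2 fold change of -0.66 (SE 0.10, 95% interval -0.89 to -0.43, adjusted p = 0.00228), or 1.58-fold lower.

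Rian, the host transcript of a large cluster of C/D box small nucleolar RNAs, had 388, 381 and 363 CPM in the knockout libraries and 572, 599 and 558 CPM in the control libraries. Both groups were tight and did not overlap, with means of 377 ± 13 CPM in knockout islets and 576 ± 20.9 CPM in control islets (SD, n = 3 each). Its log2 fold change was -0.61 (SE 0.08, 95% interval -0.78 to -0.44, adjusted p = 0.000823), or 1.53-fold lower. Mirg, the host of the microRNA cluster downstream of Rian and a gene of the wider imprinted list, had 20.1, 16.6 and 15.8 CPM in the knockout libraries and 24.6, 28.2 and 30.5 CPM in the control libraries. It fell by 0.66 on the log2 scale (SE 0.12, adjusted p = 0.00595), again with no overlap. AF357359, a small nucleolar RNA gene that lies in Rian and the only one of 4 such rows of the domain with enough counts to test, had 11.8, 11.9 and 12.4 CPM in the knockout libraries and 18.1, 19.2 and 17.6 CPM in the control libraries. It fell by 0.61 on the log2 scale (SE 0.09, adjusted p = 0.0026). Reads of the host transcript can be counted in this gene, so it is not a separate measure of a mature small RNA.

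Dlk1, which encodes a transmembrane protein related to Notch ligands and made in beta cells, was sparse. Its counts were 47, 25 and 27 in the knockout libraries and 80, 83 and 30 in the control libraries, or 2.89, 1.68 and 2.17 CPM against 4.13, 4.07 and 2.06 CPM. Control library 16 lay below knockout libraries 4 and 6, so the groups overlapped. The log2 fold change of Dlk1 was -0.61 with a 95% interval of -1.37 to 0.14 (SE 0.33, adjusted p = 0.214), which holds both no change and a fall as large as that of Meg3. Rtl1, a retrotransposon-derived gene that overlaps the RefSeq spans of Meg3 and Rian, had a log2 fold change of -0.12 (adjusted p = 0.877) and was not called. It was sparse as well, with 8, 12 and 23 counts in the knockout libraries and 26, 22 and 13 in the control libraries. Its 95% interval of -1.22 to 0.98 (SE 0.48) also holds falls as large as those of Meg3 and Rian.

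Log2 ratios of 2 genes within a library, with a pseudocount of 1 CPM added to each gene, were compared for 3 pairs by an exact two-sided permutation test, for which 3 libraries against 3 cannot give a p below 0.1. The log2 ratio of Rian to Meg3 was -1.24 ± 0.21 in the knockout and -1.30 ± 0.06 in the control (SD, n = 3 each), a difference of 0.06 (exact permutation p = 0.8, adjusted p = 0.9). The log2 ratio of Dlk1 to Meg3 was -8.12 ± 0.32 in the knockout and -8.36 ± 0.41 in the control, a difference of 0.24 (exact permutation p = 0.6, adjusted p = 0.9). At the low level of Dlk1 this difference moved with the pseudocount, being 0.45 with 5 CPM, 0.18 with 0.5 CPM and 0.10 with 0.5 counts added to raw counts. Neither ratio differed by more than the spread between libraries.

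The distal chromosome 7 domain carries Igf2, a growth factor gene expressed from the paternal allele, and H19, a noncoding RNA expressed from the maternal allele. Both were low in these adult islets. For H19, 0, 1 and 0 reads were counted in knockout libraries 4, 5 and 6, and 2, 11 and 3 reads in control libraries 7, 10 and 16. A count of 0 allows up to 0.184 CPM in library 4 and 0.241 CPM in library 6, taking 3 counts as the limit, for counting error only. Pooled over the libraries, H19 had 1 count in the knockout and 16 in the control, a CPM ratio of 0.0778 with an exact Poisson 95% interval of 0.0019 to 0.501 that covers counting error only. Most of the control counts came from library 10, and the gene was not tested.

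Igf2 had 7.06, 10.5 and 6.75 CPM in the knockout libraries and 9.09, 10.2 and 10.2 CPM in the control libraries. Knockout library 5 was above every control library, so the groups overlapped. The means were 8.09 ± 2.05 CPM in knockout islets and 9.82 ± 0.629 CPM in control islets (SD, n = 3 each), and the log2 fold change was -0.28 (SE 0.18, 95% interval -0.69 to 0.14, adjusted p = 0.306). The log2 ratio of Igf2 to H19 was 3.13 ± 0.26 in the knockout and 3.09 ± 0.20 in the control (exact permutation p = 0.9, adjusted p = 0.9), but with H19 near 0 this value mostly reflects Igf2 and the pseudocount of 1 CPM. Ins2, which lies beside Igf2, had a log2 fold change of 0.03 (adjusted p = 0.873).

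Peg3, a zinc finger gene expressed from the paternal allele, gave no call in either direction at high depth. It had 1301, 1412 and 1457 CPM in the knockout libraries and 1413, 1290.0 and 1155 CPM in the control libraries. Control library 7 lay above knockout libraries 4 and 5, so the groups overlapped. The log2 fold change was 0.11 with a 95% interval of -0.12 to 0.34 (SE 0.10, adjusted p = 0.457), an interval that does not reach the fall of Meg3 or Rian. Its chromosomal neighbours Zim1, at -0.10, and Usp29, at 0.13 on the log2 scale, were not called either.

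Plagl1 and Nnat, both expressed from the paternal allele, had the largest falls of the set. Plagl1 encodes a zinc finger transcription factor, and its overexpression in humans is linked to transient neonatal diabetes. It had 6.33, 5.23 and 5.95 CPM in knockout libraries 4, 5 and 6 and 16.8, 19.4 and 13.7 CPM in control libraries 7, 10 and 16. Every knockout library was below every control library by a wide gap. Plagl1 averaged 5.83 ± 0.558 CPM in knockout islets and 16.6 ± 2.89 CPM in control islets (SD, n = 3 each), a log2 fold change of -1.51 (SE 0.16, 95% interval -1.87 to -1.15, adjusted p = 0.000326), or 2.86-fold lower. Its nearest tested neighbours Sf3b5 and Ltv1 had log2 fold changes of 0.03 and -0.02 and were not called.

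Nnat, which encodes a small membrane protein of the endoplasmic reticulum that has been tied to insulin secretion in mouse beta cells, had 10.2, 12.3 and 9.64 CPM in the knockout libraries and 20.7, 40.3 and 26.6 CPM in the control libraries. The groups did not overlap, but the control libraries were spread, with the highest, library 10, at 1.95 times the lowest. Nnat averaged 10.7 ± 1.42 CPM in knockout islets and 29.2 ± 10.1 CPM in control islets (SD, n = 3 each), a log2 fold change of -1.45 (SE 0.25, 95% interval -2.05 to -0.84, adjusted p = 0.00805), or 2.72-fold lower. Without control library 10 the log2 fold change was -1.14 (adjusted p = 0.00416).

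Nnat lies within Blcap, which had 32.9, 34.0 and 27.2 CPM in the knockout libraries and 46.2, 50.2 and 49.6 CPM in the control libraries. Blcap fell by 0.63 on the log2 scale (SE 0.09, adjusted p = 0.00213). No source used here states that reads were counted by strand, so reads of the 2 genes may not be fully separated.

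Grb10 encodes an adaptor protein that binds the insulin and insulin-like growth factor receptors and restrains their signalling, and it is expressed from the maternal allele in most tissues and from the paternal allele in neurons. It had 59.9, 59.6 and 61.1 CPM in the knockout libraries and 103, 95.7 and 98.5 CPM in the control libraries. The spread within the groups was small, with a coefficient of variation of 1.34% in the knockout and 3.56% in the control. Grb10 averaged 60.2 ± 0.808 CPM in knockout islets and 98.9 ± 3.52 CPM in control islets (SD, n = 3 each), a log2 fold change of -0.72 (SE 0.06, 95% interval -0.85 to -0.58, adjusted p = 0.000111), or 1.64-fold lower.

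Beside Grb10 lies Ddc, the decarboxylase that makes dopamine and serotonin, which had 66.6, 92.1 and 58.3 CPM in the knockout libraries and 271, 282 and 272 CPM in the control libraries. Ddc fell by 1.92 on the log2 scale (SE 0.16, adjusted p = 0.000188). Cobl, on the other side of Grb10, had a log2 fold change of -0.06 (adjusted p = 0.816).

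**Figure D2:**
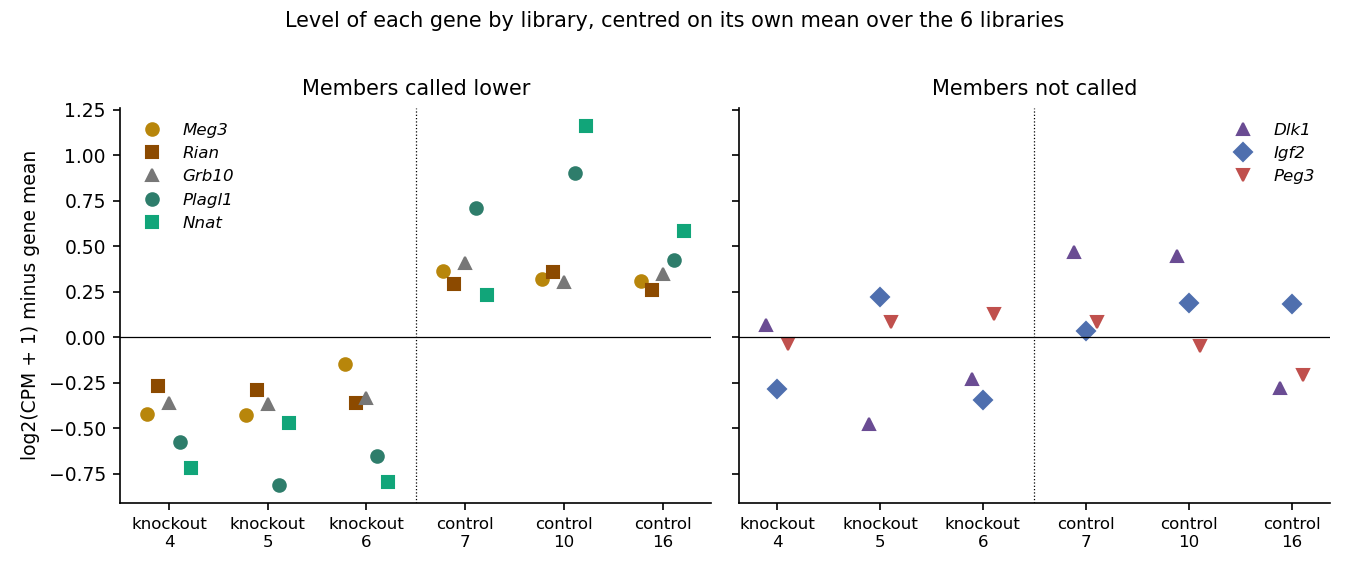
Log2(CPM + 1) of each tested gene in each library minus the mean of that gene over the 6 libraries, with the 3 knockout libraries left of the dotted line and the 3 control libraries right of it. The 5 genes called lower (left panel) lie below 0 in all knockout libraries and above 0 in all control libraries, with the farthest points belonging to Plagl1 and Nnat. The 3 uncalled genes (right panel) overlap between the groups.

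By the size of the fall, the 5 called genes lay near 2 levels. Grb10, Meg3 and Rian had log2 fold changes between -0.72 and -0.61 with intervals that overlapped each other, and Plagl1 and Nnat had -1.51 and -1.45. The interval of Plagl1 (-1.87 to -1.15) was below those of Grb10, Meg3 and Rian, while that of Nnat reached -0.84 and overlapped the intervals of Meg3 and, narrowly, Grb10. Differences between genes were not tested. Profiles were also compared by the root mean squared difference of centred log2(CPM + 1) over the 6 libraries. This is a description in which all genes share the same libraries, and the added 1 CPM shrinks the differences of genes at low levels. Grb10 and Rian were the closest pair at 0.081, Grb10 and Meg3 were at 0.086, Meg3 and Rian at 0.13, and Nnat and Plagl1 at 0.28. Nnat and Peg3 were farthest apart at 0.79.

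Among 11352 genes with at least 5 CPM on average, the 3 most alike to each called gene were read off by the same measure. Meg3 was closest to Kazn (0.045), Kalrn (0.054) and St8sia5 (0.056), against a median distance of 0.37 over all these genes. Rian was closest to Slc25a24 (0.026), Rara (0.036), a retinoic acid receptor, and Nrp1 (0.039), a receptor of semaphorins and VEGF (median 0.34). Plagl1 was closest to Phf16 (0.085), Vldlr (0.11), a lipoprotein receptor, and Ndrg1 (0.12) (median 0.71). Grb10 was closest to Nckap5l (0.025), Athl1 (0.03) and Scpep1 (0.042), a carboxypeptidase (median 0.38). Among the genes closest to Nnat were Csgalnact1 (0.18) and Tmem98 (0.19) (median 0.74). All of the genes named here were lower in the knockout, as is inherent in the measure.

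The authors' deposited table, adjusted p under 0.05, called 6.19% of 19440 genes lower and 6.66% higher. In the authors' deposited table the same 5 genes were below that threshold, with log2 fold changes and adjusted p-values of -1.50 and 3.17e-09 for Plagl1, -1.43 and 0.0122 for Nnat, -0.70 and 1.46e-07 for Grb10, -0.64 and 2.69e-09 for Meg3, and -0.59 and 2.61e-07 for Rian. In the authors' deposited table H19 had an adjusted p of 0.343, Dlk1 0.411, Igf2 0.625 and Peg3 0.659.

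Other imprinted genes of the mouse were called in both directions. In a list of 40 further imprinted genes, 30 were tested, 6 fell and 3 rose, with a median log2 fold change of -0.10. Gnas, an imprinted locus that rose, was listed with the signalling genes below and is not in these counts. Over all tested genes the shares were 12.6% lower and 11.8% higher, with a median of -0.01. Of the 24 listed as paternally expressed, 18 were tested, and 1 fell and 1 rose. Impact, which inhibits the Gcn2 stress kinase pathway, averaged 76.2 ± 7.04 CPM in knockout islets and 109 ± 6.37 CPM in control islets (log2 fold change -0.52, SE 0.08, adjusted p = 0.00297). Inpp5f, a phosphoinositide phosphatase of which one variant is imprinted, averaged 86.4 ± 5.03 CPM in knockout islets and 68.2 ± 1.41 CPM in control islets (0.34, SE 0.07, adjusted p = 0.00686). The most abundant that were not called were Slc38a4, an amino acid transporter, at 497 ± 66.9 CPM in knockout islets and 494 ± 98.2 CPM in control islets, and Peg13 at 283 ± 30.3 CPM in knockout islets and 301 ± 69.0 CPM in control islets.

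Of the 16 further genes listed as maternally expressed, 12 were tested, and 5 fell and 2 rose. For both lists, which allele was expressed in these islets was not tested. Over all tested genes 12.6% fell and 11.8% rose. Mirg, which is among the 5, fell as given above. It lies in the domain of Meg3 and Rian, and whether its fall is separate from theirs was not tested. Asb4, a ubiquitin ligase subunit, averaged 3.30 ± 0.0806 CPM in knockout islets and 6.60 ± 0.870 CPM in control islets and fell by 1.0 on the log2 scale (SE 0.18, adjusted p = 0.00522). Osbpl5, an oxysterol-binding protein, averaged 26.1 ± 1.11 CPM in knockout islets and 38.1 ± 3.69 CPM in control islets (-0.54, SE 0.09, adjusted p = 0.00377). Cdkn1c, the cell cycle inhibitor p57, averaged 2.21 ± 0.164 CPM in knockout islets and 4.01 ± 0.439 CPM in control islets (-0.86, SE 0.21, adjusted p = 0.0198).

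Kcnq1, a potassium channel gene that overlaps the noncoding RNA Kcnq1ot1, averaged 4.84 ± 0.584 CPM in knockout islets and 9.53 ± 2.49 CPM in control islets (log2 fold change -0.97, SE 0.22, adjusted p = 0.0141). Ube3a, a ubiquitin ligase imprinted in neurons, rose to 80.9 ± 2.66 CPM in knockout islets, against 53.0 ± 6.82 CPM in control islets (0.61, SE 0.10, adjusted p = 0.0027). Slc22a18, a transporter gene, rose to 4.27 ± 0.643 CPM in knockout islets, against 2.46 ± 0.219 CPM in control islets (0.78, SE 0.22, adjusted p = 0.0305). The calls of Cdkn1c, Kcnq1 and Slc22a18 each depended on single libraries, and with 1 library left out at a time their adjusted p reached 0.0784, 0.0599 and 0.085. Igf2r, the receptor that clears Igf2, was the most abundant uncalled gene of this list, at 88.0 ± 6.17 CPM in knockout islets and 103 ± 9.28 CPM in control islets (-0.23, adjusted p = 0.0829), followed by Zim1 at 69.2 ± 5.02 CPM in knockout islets and 73.9 ± 10.9 CPM in control islets.

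**Figure D3:**
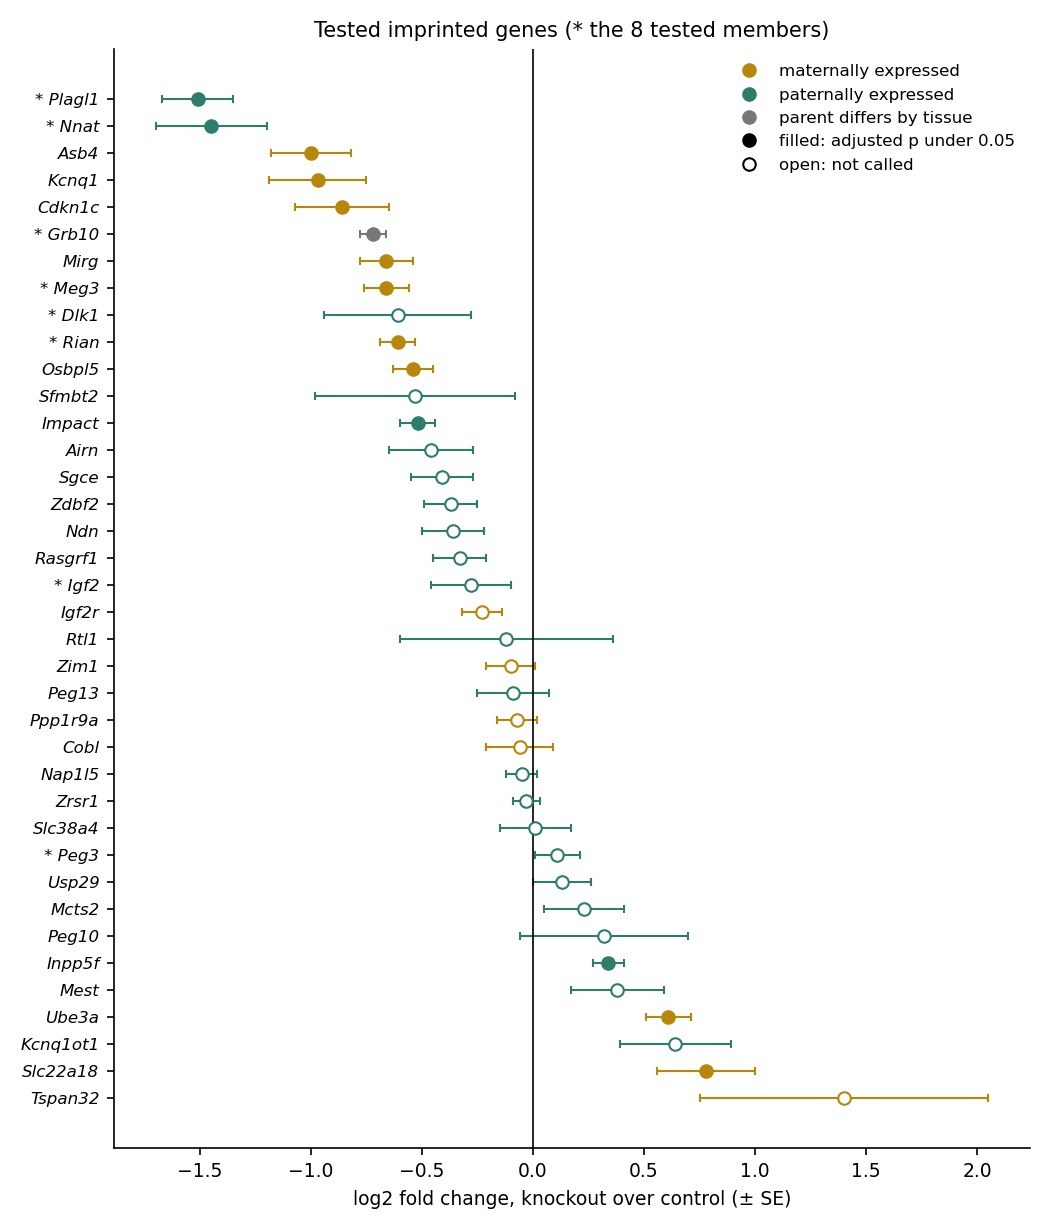
Log2 fold change (knockout over control, ± SE) of the 38 tested imprinted genes, ordered from the most lowered at the top, with stars for the 8 tested genes of the set, colour for the parental allele and filled points for an adjusted p under 0.05. Plagl1 (-1.51) and Nnat (-1.45) are at the top, Meg3, Mirg and Rian stand close together near -0.6, and 3 filled points, Inpp5f, Ube3a and Slc22a18, lie above 0.

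Neighbouring genes were called in both directions. Of 43 genes among the 3 nearest on either side of the 9 genes, 22 were tested, 5 fell and 3 rose, where 12.6% of all tested genes were called lower and 11.8% higher. In this list all neighbours of Rian were microRNA genes that were not tested. With only protein-coding and long noncoding RNA neighbours, 23 of 38 were tested, 6 fell, Mirg among them, and 3 rose. On chromosome 12, Wars, a tryptophanyl-tRNA synthetase, averaged 182 ± 10.9 CPM in knockout islets and 112 ± 15.3 CPM in control islets (log2 fold change 0.70, adjusted p = 0.00189). Wdr25, next to it, had a log2 fold change of 0.55 (adjusted p = 0.0165), and Begain, between these and Dlk1, had -0.81 (adjusted p = 0.0628) and was not called, although its 3 knockout libraries lay below its 3 control libraries. Th, the tyrosine hydroxylase gene beyond Ins2, averaged 7.85 ± 1.18 CPM in knockout islets and 37.0 ± 8.62 CPM in control islets (-2.25, SE 0.19, adjusted p = 0.000162), and it is also one of the neuron markers counted above. Fuca2, a fucosidase gene near Plagl1, fell by 0.45 on the log2 scale (adjusted p = 0.00643) and Phactr2, beside it, by 0.44 (adjusted p = 0.0243). Fignl1, near Grb10, averaged 2.90 ± 0.980 CPM in knockout islets and 1.15 ± 0.304 CPM in control islets and rose by 1.32 on the log2 scale (adjusted p = 0.0265). The calls of Wdr25, Phactr2 and Fignl1 were lost when single libraries were left out, with adjusted p up to 0.0637, 0.0993 and 0.0959.

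**Figure D4:**
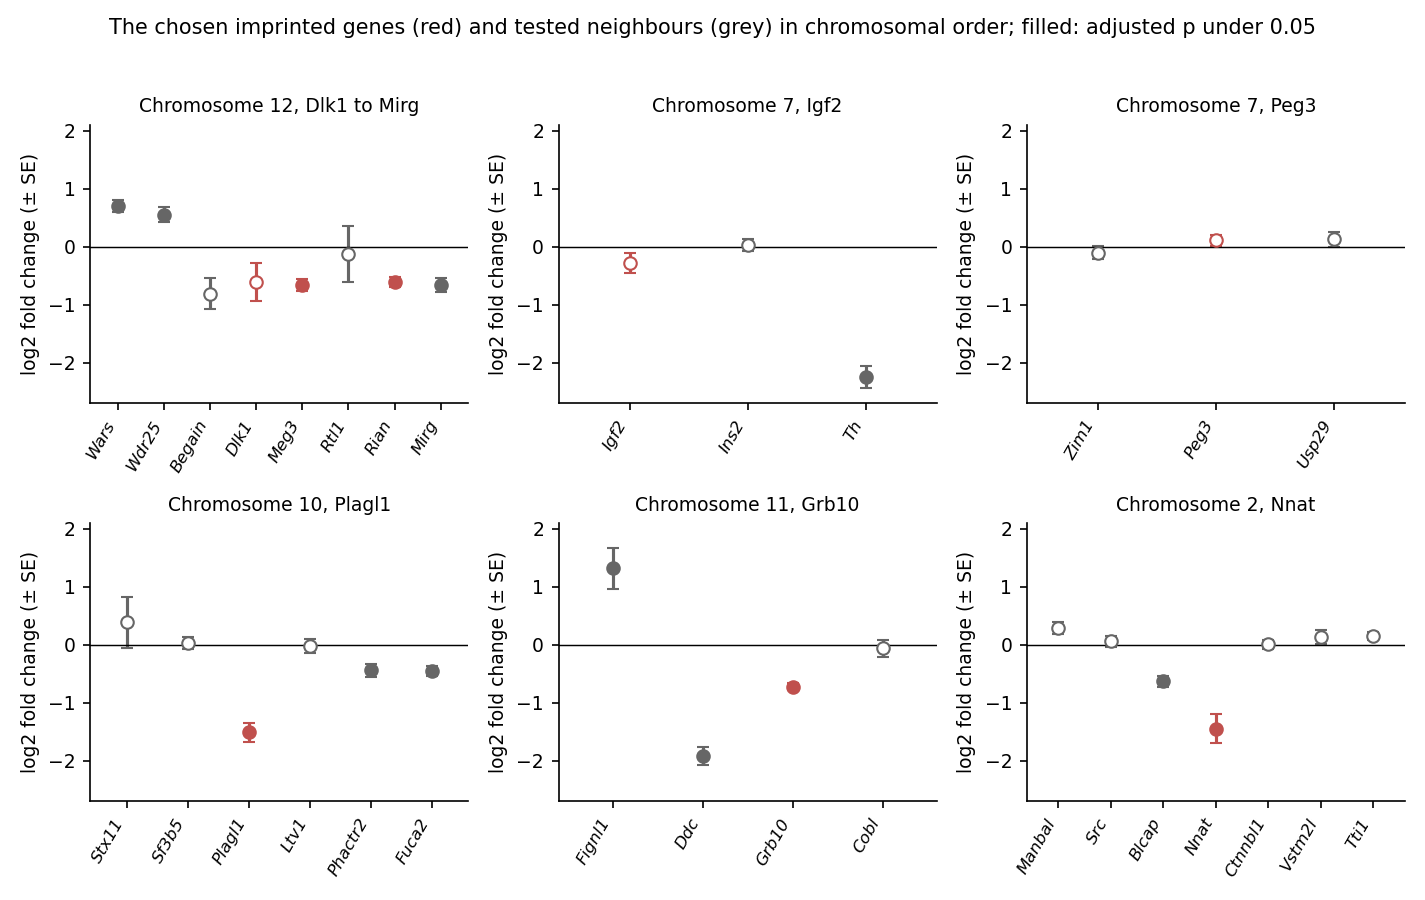
Log2 fold change (knockout over control, ± SE) of the imprinted genes (red) and their tested neighbours (grey) in chromosomal order, in 6 panels with filled points for an adjusted p under 0.05. Meg3, Rian and Mirg lie near -0.6 while Wars (0.70) and Wdr25 (0.55) lie above 0, and Plagl1 (-1.51) stands between Sf3b5 (0.03) and Ltv1 (-0.02).

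Of 14 listed genes that set or maintain imprints, 13 were tested, and 3 rose and 0 fell by edgeR, beside 11.8% higher and 12.6% lower over all tested genes. DESeq2 and limma-voom called 0 lower as well, and 0 had an unadjusted p under 0.05 in that direction. Uhrf1, which brings the maintenance methyltransferase to newly copied DNA and is high in dividing cells, had 3.75, 7.37 and 12.7 CPM in the knockout libraries and 2.38, 2.01 and 1.85 CPM in the control libraries. The knockout libraries were spread but all lay above the control libraries (log2 fold change 1.91, SE 0.42, adjusted p = 0.0152). Dnmt3b, a de novo methyltransferase, averaged 11.1 ± 2.14 CPM in knockout islets and 7.44 ± 0.546 CPM in control islets (0.58, SE 0.17, adjusted p = 0.0356), and Atrx, a chromatin remodeller, averaged 237 ± 14.3 CPM in knockout islets and 189 ± 17.4 CPM in control islets (0.33, SE 0.09, adjusted p = 0.0277). All 3 calls were lost when single libraries were left out, with adjusted p up to 0.0637 for Uhrf1, 0.116 for Dnmt3b and 0.0784 for Atrx. The most abundant uncalled genes of the list, Dnmt3a and Zfp445, had log2 fold changes of -0.09 (adjusted p = 0.558) and 0.10 (adjusted p = 0.434).

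In insulin and insulin-like growth factor signalling, where Grb10 and Igf2 act, 10 of 11 listed genes were tested, 3 fell and 2 rose, against a background of 12.6% lower and 11.8% higher. Ins1 had 3847, 6013 and 3061 CPM in the knockout libraries and 48952, 45236 and 51817 CPM in the control libraries (log2 fold change -3.50, SE 0.25, adjusted p = 0.000127). Igf1, the ligand, averaged 4.34 ± 0.468 CPM in knockout islets and 7.66 ± 1.74 CPM in control islets (-0.81, SE 0.21, adjusted p = 0.0212). Irs1, a receptor substrate, averaged 21.6 ± 0.154 CPM in knockout islets and 28.6 ± 2.61 CPM in control islets (-0.40, SE 0.09, adjusted p = 0.0147).

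Gnas, an imprinted locus that encodes the stimulatory G protein subunit and was listed with these genes, rose to 2474 ± 113 CPM in knockout islets, against 1641 ± 83.6 CPM in control islets (0.59, SE 0.09, adjusted p = 0.00217). Igf1r, the receptor that Grb10 binds, rose and averaged 129.6 ± 11.7 CPM in knockout islets and 102 ± 8.48 CPM in control islets (0.34, SE 0.09, adjusted p = 0.0235). Insr, the insulin receptor gene, averaged 120.0 ± 8.48 CPM in knockout islets and 114 ± 10.5 CPM in control islets and was not called (0.07, adjusted p = 0.596). The calls of Igf1, Irs1 and Igf1r were lost when single libraries were left out, with adjusted p up to 0.0676, 0.0569 and 0.0857.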

How the data were processed

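Islet RNA-seq of 6 libraries was analysed from files that the authors deposited, which hold whole-number counts per gene and library. The authors' deposited table gives, per gene and group, a mean signal (counts divided by size factors), with a ratio (fold change), the log2 of that ratio, and raw and adjusted p-values. The submitters' processing notes, per the labels, list TopHat2 2.1.0, Cufflinks 2.0.2, bcl2fastq 1.8.4, DESeq and build mm9. The sources used here do not give the read counter, its annotation or whether it used strand. Overlapping or antisense genes (Kcnq1 and Kcnq1ot1, Igf2r and Airn, Nnat and Blcap, Rtl1 and Meg3) and near copies (Mcts2, Zrsr1) are therefore uncertain.

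The analysis used edgeR 4.0.16 in R 4.3.3. The filter was filterByExpr (minimum count 10, minimum total 15), libraries were scaled by TMM (factors 0.988 to 1.021), and the groups were compared by the robust quasi-likelihood F test over 14770 genes with Benjamini-Hochberg adjusted p-values and 0.05 as threshold. The fit was tested on simulated data. DESeq2 1.42.0, limma-voom (limma 3.58.1), other scalings, other filters, marker covariates and leaving out each library were tried as alternatives. The order of neighbours and the promoters are from RefSeq GRCm38.p6. Genes named in the text are the 9 imprinted genes, Neurod1, the members of the further lists and the neighbours that passed the threshold, the 2 most abundant uncalled members of each further list, and the 3 genes most alike to each called gene. A gene that this rule selects is not reported here. Begain, Rtl1, Sf3b5, Ltv1, Cobl, Usp29 and AF357359 were added after their values were seen. The cell type markers Nkx6-1, Pdx1, Slc2a2, G6pc2 and Gcg are also named and were not selected by the rule. The 9 genes and all lists were chosen with earlier results of these data known.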

Additional observations from a re-analysis of the deposited data

How the results depend on the processing

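The 5 falls (Meg3, Rian, Plagl1, Grb10, Nnat) were called in each of 6 fits that left out 1 library and under DESeq2, limma-voom, upper-quartile and RLE scaling, no filter, a filter of 1 CPM in 3 libraries, and non-robust estimation. Marker covariates changed the counts, and except for the acinar one they were added after the data were seen. With the acinar covariate 3 of the 5 were called (not Meg3, at -0.61 with adjusted p = 0.0528, nor Nnat, at -1.29 with 0.146), paternally expressed genes of the further list gave 0 higher and 2 lower, maternally expressed ones 1 higher and 3 lower, signalling genes 1 higher, and neighbours 3 lower; over all genes 835 were higher and 686 lower, against 1736 and 1864. With the stellate covariate 3 were called (not Rian, at -0.55 with adjusted p = 0.0604, nor Nnat, at -0.81 with 0.238), both further lists gave 0 in each direction, Peg3 turned to -0.12, and 397 genes were higher and 460 lower. With the endothelial covariate 0 of the 5 and 0 of either further list were called (Plagl1 was at -2.11, Meg3 at -1.32, Nnat at -0.88, Grb10 at -0.81 and Rian at -0.48), Neurod1 was at -3.09 (adjusted p = 0.0714), and Igf2 (0.91), Peg3 (-0.23), Kcnq1 (0.10), Uhrf1 (-0.53), Atrx (-0.03), Igf1 (0.03) and Blcap (0.09) changed sign; only 12 genes were higher and 2 lower, since this covariate and the genotype nearly coincide. The leukocyte covariate gave 2 higher paternally expressed and 1 higher maternally expressed genes, and kept all 5 falls. DESeq2 gave 2 higher and 2 lower paternally expressed genes.

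Leaving out 1 library gave 1 to 2 higher and 1 to 4 lower paternally expressed genes, 1 to 2 higher and 3 to 5 lower maternally expressed genes, 0 to 5 higher and 0 to 1 lower imprint regulators, 1 to 2 higher and 1 to 3 lower signalling genes, and 1 to 3 higher and 4 to 5 lower neighbours. Over all genes, leaving out control library 10 gave 1153 calls upward and 1225 downward. The difference in the log2 ratio of Rian to Meg3 ran from -0.01 to 0.18, of Dlk1 to Meg3 from 0.01 to 0.36, and of Igf2 to H19 from -0.11 to 0.13 across these fits, and a pseudocount of 5 CPM gave -0.12 for Igf2 to H19, a ratio set by the pseudocount because H19 is near 0. The cause of the other changes was not tested. No paired analysis was possible because the groups share no replicate number. Low counts kept H19 and the microRNA hairpins out of the test.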

Other observations

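The Meg3 to Mirg interval also holds 55 rows of microRNA hairpin genes, which long RNA libraries count only through fragments of their precursors. Of these, 30 had a count in any library, the highest single value was 12 counts, and 0 had enough counts to be tested. Summed over the hairpins, knockout libraries 4, 5 and 6 had 41, 40 and 35 counts and control libraries 7, 10 and 16 had 54, 58 and 54 counts, without scaling for depth. The library totals were 12206393 to 16473159 counts in the knockout and 14424767 to 20412435 counts in the control. The control libraries were thus mostly deeper, and the gap between the raw sums cannot be read as a difference in level. These sums are raw counts of precursor fragments, so they say nothing of mature microRNA levels.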
